A study of Mus musculus with 6 samples.

Results

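Homeobox, Pax, Sox, GATA and T-box genes encode transcription factors that lay out the body plan and fix the identity of organs and cell types in the embryo. The members described here are the genes of the array whose symbol begins with Hox, Pax, Sox, Lhx, Nkx, Dlx, Pou, Pitx, Msx, Meis, Pbx, Irx, Emx, Otx, Gata or Tbx followed by the family number, together with Prox1 and the sine oculis genes, of which Six4 is an example. The naming rule uses symbols and no measured value. The rule took 144 of the 16281 probes, of which 142 named 131 of the 10698 singly named genes and 2 were shared by Hoxd9 and Hoxd10. The rule also takes in 4 genes named as transcripts opposite a family member (Dlx6os2, Hoxa11os, Hoxd3os1 and Sox6os) and Pou2af1, a coactivator that binds POU factors and no DNA-binding family member itself.

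The RNA came from RAW 264.7 cells, 1 transformed mouse cell line with macrophage character. Treated cells had received bacterial lipopolysaccharide (LPS) at 100 ng/ml together with LPS-binding protein (LBP) at 100 pM, and untreated cells had received neither. Both were harvested after 4 h, and total RNA of treated and of untreated cells was hybridised together in different dyes on each of 6 arrays. Treated RNA carried the dye Cy5 on 3 arrays and Cy3 on the other 3, and within each of these 2 dye orientations the arrays bear the set numbers 1 to 3. Each value is the log2 of treated divided by untreated RNA, with the sign turned for arrays on which treated RNA was in Cy3. A set value is the mean of the 2 arrays with the same set number, and a change is the mean ± SD of n = 3 sets. That direction is likely rather than settled, since its basis is that Cy5 is called the test channel in the labels.

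Most of these genes are known from tissues other than macrophages. Hox genes lie in 4 clusters and pattern the body axis, and their proteins bind DNA together with Meis and Pbx proteins. Pax, Lhx, Nkx, Dlx, Irx and sine oculis genes act in the nervous system, sense organs, muscle, limbs and gut, Sox and T-box genes in neural crest, heart, gonad and skeleton, and GATA genes in blood and in gut or heart. A few have known roles in blood cells, among them Pou2f2, Pou2af1 and Pax5 in B cells, Gata1 and Gata2 in early and red blood cells, Gata3 and Tbx21 in T cells, and Hoxa9, Hoxb4 and Meis1 in blood stem cells.

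A value on all 6 arrays was held by 111 of the 131 genes and by both shared probes, which gave 113 tested members among 11364 tested features. A value of exactly 0 was taken as not measured. Such zeros made up 4.40% of the members' values and 9.91% of all values in the table. Of the 20 genes short of a full record, 16 were measured in 2 sets, 3 in 1 set and 1, Pax3, was at 0 on all 6 arrays. The table holds ratios and no intensities, so whether a member was transcribed in these cells cannot be read from it. For the same reason the macrophage markers could be checked only for having been measured. Of 16 markers, 14 had a value on all 6 arrays, and 5 of these rose and 2 fell. Among all features 14.0% rose and 15.0% fell. Among the 40 tested markers of B, T, neural, muscle, epithelial, fibroblast, erythroid and germ or stem cells, the T cell list, the muscle list and the erythroid list had 1 rise each and none of the 8 lists had a fall. Their part in the results was not tested.

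Of the 113 members, 16 passed limma's test at an adjusted p below 0.05, or 14.2%, against 29.0% of all features. At an unadjusted p below 0.05 there were 27, or 23.9%, against 38.4% of all features. Rises numbered 10 (8.85%, against 14.0% of all features) and falls 6 (5.31%, against 15.0%). A change of at least 1.5-fold was called for 3 members, or 2.65%, against 4.86% of all features, and 2 of the called members, Pou2f2 as a rise and Pax6 as a fall, reached 2-fold (1.77%, against 2.03%). Members with the same sign on all 6 arrays and a call numbered 13, or 11.5%, against 22.2% of all features. The share called was thus below the background under each of these rules. At 1.5-fold and 2-fold the shares rest on only 3 and 2 members, and at 2-fold the share lies near the background. The median absolute change was 0.063 among members and 0.083 over all features, while the median SD between sets was 0.084 among members and 0.074 over all features. In a comparison of whole cell populations, fewer cells with a transcript and less of it per cell cannot be told apart.

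**Figure D1:**
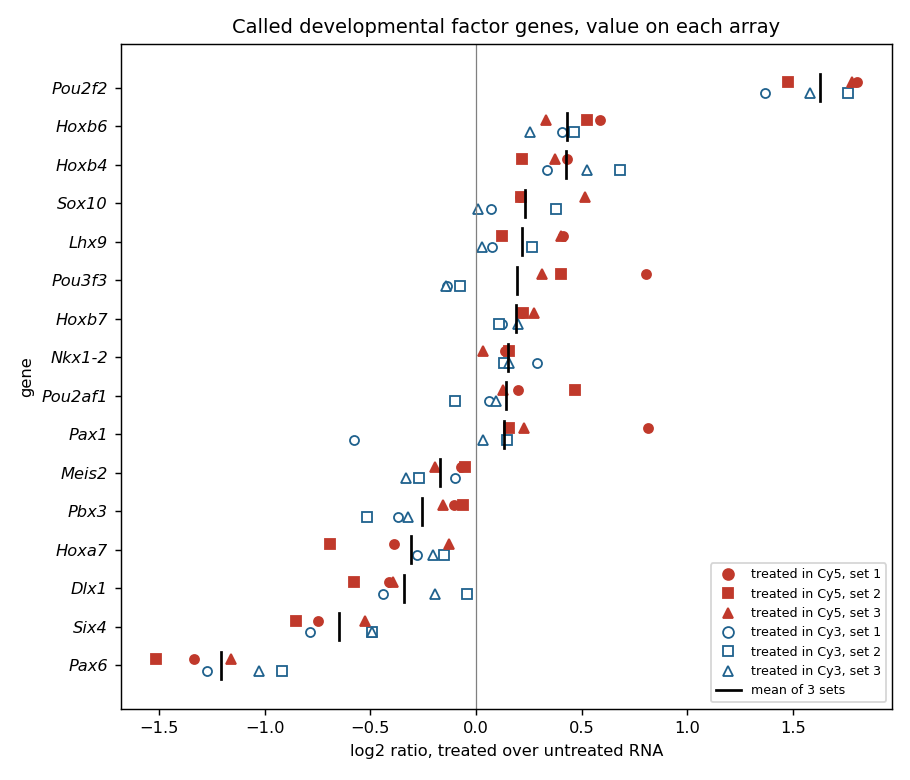
Log2 ratio of treated over untreated RNA (horizontal axis) for the 16 called members (rows), with each of 6 arrays as a point and the mean of 3 sets as a bar. Pou2f2 and Pax6 lie apart from the others at 1.63 and -1.21, and the points of Pou3f3, Pou2af1 and Pax1 fall on both sides of 0.

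The annotated start regions of the genes with the firmest calls are shown so that the sequence in front of each can be read beside its change. Pou2f2, Pax6, Hoxb4 and Six4 are 4 of the 5 members that stayed called under the 15 alternatives of processing run gene by gene at an adjusted p below 0.05, and the fifth, Hoxb6, is named only. With a minimum of 1.5-fold, Hoxb4 and Hoxb6 are not called. The sequences are the 250 bases before the first listed start of each gene, 5′ to 3′ on the gene's strand, from RefSeq on build GRCm38.p6: Pou2f2 at chr7:25132461-25132710 (minus strand), Pax6 at chr2:105668646-105668895 (plus), Hoxb4 at chr11:96318017-96318266 (plus) and Six4 at chr12:73113246-73113495 (minus). Capitals mark matches, on either strand, to the NF-κB consensus, the octamer ATGCAAAT bound by POU factors, the interferon response element (GAAA, any 2 bases, GAAA), the STAT site TTCNNNGAA and the AP-1 site TGANTCA.
Pou2f2: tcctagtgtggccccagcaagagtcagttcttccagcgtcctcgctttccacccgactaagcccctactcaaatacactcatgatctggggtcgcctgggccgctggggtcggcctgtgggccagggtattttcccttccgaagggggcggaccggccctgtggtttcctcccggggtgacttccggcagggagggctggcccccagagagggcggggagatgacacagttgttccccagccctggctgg
Pax6: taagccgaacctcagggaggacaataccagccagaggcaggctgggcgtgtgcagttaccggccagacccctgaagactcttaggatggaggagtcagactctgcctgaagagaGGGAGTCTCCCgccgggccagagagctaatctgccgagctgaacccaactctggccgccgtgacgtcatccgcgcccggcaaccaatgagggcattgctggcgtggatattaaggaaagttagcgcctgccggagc
Hoxb4: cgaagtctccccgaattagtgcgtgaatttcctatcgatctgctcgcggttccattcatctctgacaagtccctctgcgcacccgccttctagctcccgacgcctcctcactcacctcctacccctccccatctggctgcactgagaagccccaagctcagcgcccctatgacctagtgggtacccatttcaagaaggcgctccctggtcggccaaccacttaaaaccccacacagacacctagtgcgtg
Six4: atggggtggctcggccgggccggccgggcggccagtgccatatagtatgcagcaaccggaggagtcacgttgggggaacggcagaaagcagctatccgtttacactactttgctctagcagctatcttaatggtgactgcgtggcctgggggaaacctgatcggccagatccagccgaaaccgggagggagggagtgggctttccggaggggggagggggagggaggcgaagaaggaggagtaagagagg

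The only match among these windows was the NF-κB consensus upstream of Pax6, where 2 overlapping matches ran from position -136 to -127 and from -135 to -126 relative to the start. That consensus occurred in 7.25% of the 32851 start regions of the table and in 5.38% of the 93 start regions of the 76 members found there. The interferon response element was held by 1.08% of the members' start regions (2.98% of all), TTCNNNGAA by 5.38% (7.02%), TGANTCA by 4.30% (6.75%) and ATGCAAAT by 0 of 93 (1.60%). A match here is a string of letters and no shown binding site. The start region of Pou2f2, with the largest rise, held none of the 5 motifs in this window.

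Of the 8 tested members with a Pou symbol, which include the coactivator gene Pou2af1, 3 rose and 0 fell, against 14.0% and 15.0% of all features. Of the 3 rises, those of Pou2af1 and Pou3f3 lost their calls under several alternatives. Pou2f2, which encodes the octamer-binding factor Oct-2 of lymphoid and myeloid cells, had log2 ratios of 1.80, 1.48 and 1.78 with treated RNA in Cy5 and of 1.37, 1.76 and 1.58 with it in Cy3. All 6 arrays were high, and the lowest lay above every array value of every other called member. The gene rose by 1.63 ± 0.047, or 3.09-fold (95% interval of the log2 change 1.53 to 1.73, limma adjusted p = 3.45e-07). Its 2 probes gave 2.00 ± 0.055 and 1.26 ± 0.095, so they differ in size and not in direction. Pou2af1, the coactivator of Oct-2 in B cells, had 0.20, 0.47 and 0.13 with treated RNA in Cy5 and 0.060, -0.098 and 0.095 in Cy3. It rose by 0.14 ± 0.038 (limma adjusted p = 0.043) with 5 of 6 arrays above 0, and the call ended without any 1 of the sets, at 0.12 to 0.16. Pou3f3, a factor of brain and kidney development, was high with treated RNA in Cy5, at 0.81, 0.40 and 0.31, and below 0 in Cy3, at -0.14, -0.075 and -0.14. Its call as a rise, 0.19 ± 0.13 (limma adjusted p = 0.038), ended without set 1 at 0.12 and turned to -0.12 on the arrays with treated RNA in Cy3. The 5 POU members that did not pass, among them the pluripotency gene Pou5f1 (0.077 ± 0.099), lay between -0.065 and 0.10.

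Of 7 Pax genes tested, 1 fell and 1 rose, against 15.0% lower and 14.0% higher among all features. Pax6, the master regulator of eye development that also acts in brain and endocrine pancreas, had -1.33, -1.52 and -1.16 with treated RNA in Cy5 and -1.28, -0.92 and -1.03 with it in Cy3. Every array was low, and all 6 values lay below those of the other called members. The gene fell by 1.21 ± 0.10 on the log2 scale, or 2.31-fold (interval -1.33 to -1.08, limma adjusted p = 3.76e-06). It was read by 1 probe. Pax1, a gene of the vertebral precursor and thymus, had set values of 0.12, 0.15 and 0.13, yet its set 1 arrays stood at 0.82 with treated RNA in Cy5 and at -0.58 with it in Cy3. The call of 0.13 ± 0.016 (limma adjusted p = 0.0497) was lost under 12 of 14 alternatives, among them the removal of any 1 set, which left 0.12 to 0.14. Pax5, which commits blood precursors to the B cell line, was at -3.82e-04 ± 0.11 (95% interval -0.12 to 0.12) and did not pass.

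Six4, which acts in muscle and sensory organ formation, had -0.75, -0.85 and -0.53 with treated RNA in Cy5 and -0.79, -0.49 and -0.49 with it in Cy3. All 6 arrays lay below 0. It fell by 0.65 ± 0.13, or 1.57-fold (limma adjusted p = 1.39e-04). The other 2 tested genes of its family did not pass: Six5 was at -0.14 ± 0.13 and Six3 at -0.029 ± 0.13. Without set 2, Six5 was called at -0.22 (limma adjusted p = 0.015).

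Hox genes and opposite-strand transcripts made up 29 of the tested members, of which 3 rose and 1 fell. Among all features 14.0% rose and 15.0% fell. All 3 rises lay in the HoxB cluster, where 8 genes were tested and the median change was 0.12. Hoxb4, known for expanding blood stem cells, had 0.43, 0.22 and 0.37 with treated RNA in Cy5 and 0.34, 0.68 and 0.53 in Cy3, and rose by 0.43 ± 0.038 (1.35-fold, limma adjusted p = 2.67e-04). Hoxb6, a trunk patterning gene, had 0.59, 0.53 and 0.33 in the first orientation and 0.41, 0.47 and 0.26 in the second, and rose by 0.43 ± 0.12 (1.35-fold, limma adjusted p = 8.81e-04). For both genes all 6 arrays were above 0 and the orientations overlapped. Hoxb7, next to Hoxb6 in the cluster, rose by a smaller 0.19 ± 0.039 (limma adjusted p = 0.013), with 6 of 6 arrays above 0. Without set 3 it was at 0.17 and was not called. Hoxb5, which lies between Hoxb4 and Hoxb6, was at 0.10 ± 0.11 and Hoxb3 at 0.13 ± 0.052 (limma adjusted p = 0.20 and 0.062), so neither passed. Hoxb8, Hoxb9 and Hoxb13 lay between -0.075 and 0.044.

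**Figure D2:**
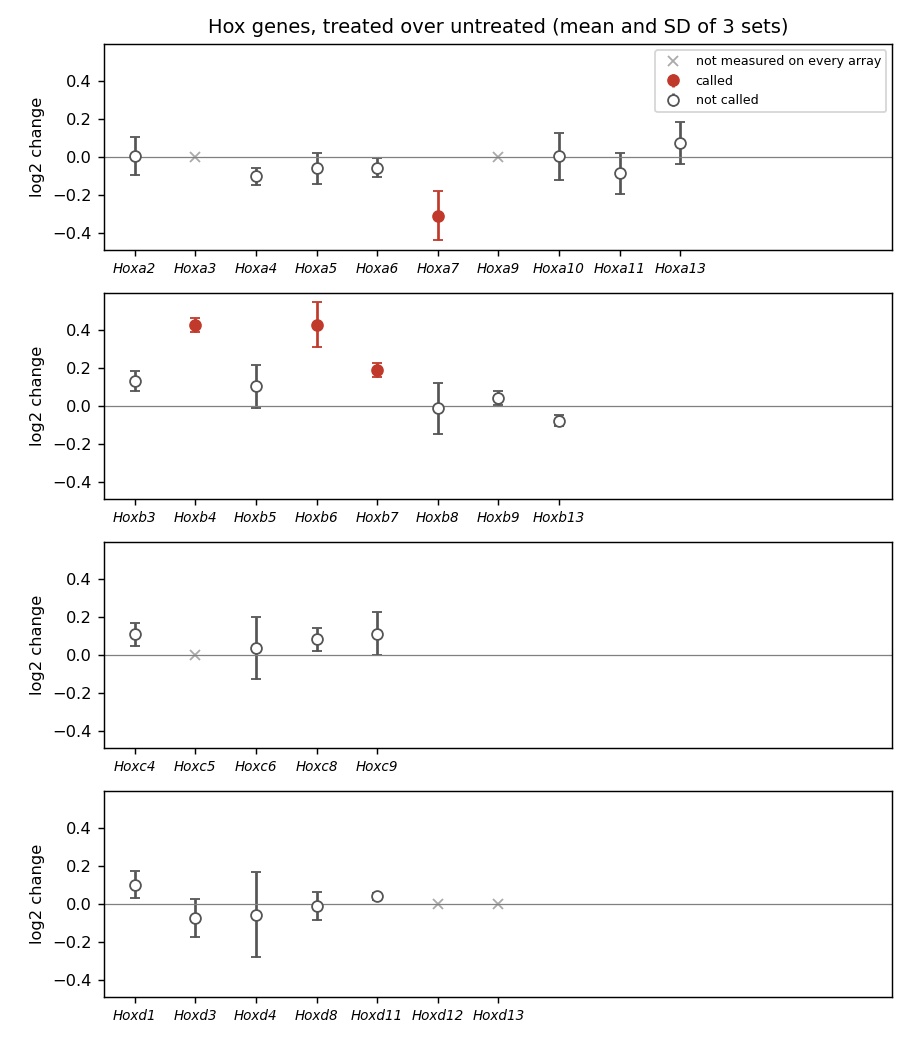
Log2 change of treated over untreated RNA (vertical axis, mean with SD of 3 sets) for Hox genes by number within the HoxA, HoxB, HoxC and HoxD clusters, from top to bottom. Filled points are called and open points are not, and a cross marks a gene without a value on every array, which was not tested. Hoxb4, Hoxb6 and Hoxb7 lie above 0, and Hoxa7 lies below it at -0.31.

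In the other 3 clusters 1 gene was called among 9 HoxA, 4 HoxC and 8 HoxD members tested, against 29.0% of all features. Hoxa7, a trunk patterning gene that is often high in leukaemia, had -0.39, -0.69 and -0.13 with treated RNA in Cy5 and -0.28, -0.15 and -0.20 in Cy3. It fell by 0.31 ± 0.13 (1.24-fold, limma adjusted p = 0.0056), with 6 of 6 arrays below 0. Hoxa7 was not called from either orientation alone (limma adjusted p = 0.085 in Cy5 and 0.062 in Cy3) or with exact zeros kept as values (0.080). The other 8 tested HoxA members lay between -0.099 and 0.076. All 4 tested HoxC genes had positive changes, from 0.036 to 0.11, and none passed. The 8 HoxD members lay between -0.071 and 0.10. Hoxa9, a blood stem cell gene, was at 0 on 1 array of set 2 and had set values of 0.21 and -0.15 in sets 1 and 3.

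Of the Meis and Pbx genes, whose proteins are DNA-binding partners of Hox proteins, 2 of 5 fell and 0 rose, against 15.0% lower and 14.0% higher among all features. Pbx3 had -0.10, -0.061 and -0.16 with treated RNA in Cy5 and -0.37, -0.52 and -0.32 in Cy3. The orientations did not overlap, although all 6 arrays were below 0. It fell by 0.26 ± 0.029 (limma adjusted p = 0.0033). From the 3 arrays with treated RNA in Cy5 it came to -0.11 and was not called (limma adjusted p = 0.27). Meis2 fell by 0.17 ± 0.088 (limma adjusted p = 0.036) with 6 of 6 arrays below 0, a call carried by 1 of its 2 probes (-0.25 ± 0.11, against -0.089 ± 0.068 for the other). Without set 2 Meis2 was at -0.17 and without set 3 at -0.12, and it was called in neither. Meis1, the partner of Hoxa9 in blood stem cells, was at 0.11 ± 0.035 and did not pass (limma adjusted p = 0.093). Pbx4, measured in 2 sets at 0.29 and 0.25, passed when features with values in 2 or more sets were fitted (limma adjusted p = 0.014).

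Single genes were called in 4 further families. They were 1 of 7 Dlx and Msx members, 1 of 6 Lhx, 1 of 14 Sox and 1 of 11 Nkx members. Among all features 14.0% rose and 15.0% fell. Dlx1, a gene of forebrain interneurons, fell by 0.34 ± 0.072 (1.27-fold, limma adjusted p = 0.00125) with values from -0.58 to -0.043 on the 6 arrays, while the other 6 tested Dlx and Msx members did not pass. On the treated-in-Cy3 arrays alone Dlx1 was at -0.23 (limma adjusted p = 0.14). Lhx9, a gene of gonad formation, rose by 0.22 ± 0.026 (limma adjusted p = 0.0067), with 0.41, 0.12 and 0.40 in Cy5 and 0.077, 0.27 and 0.026 in Cy3. From either orientation alone Lhx9 was not called (limma adjusted p = 0.071 in Cy5 and 0.28 in Cy3), and neither were Hoxb7, Sox10, Meis2, Nkx1-2, Pou2af1 and Pax1. Sox10, the neural crest factor, rose by 0.23 ± 0.083 (limma adjusted p = 0.0094) with 6 of 6 arrays above 0, the lowest at 0.0092. Without set 3 it was at 0.22 and not called. Nkx1-2, a gene of the posterior embryo, rose by 0.15 ± 0.060 (limma adjusted p = 0.042) with 6 of 6 arrays above 0, and lost its call without any 1 of the sets, at 0.12 to 0.18. Where probes without a value on every array also entered, Nkx1-2 was lower and not called. It was at 0.12 with features measured in at least 2 sets and at 0.083 with exact zeros kept (limma adjusted p = 0.13 in both).

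No call was made among 6 Gata genes, 9 Tbx genes, 5 Irx genes, 2 Pitx genes (Pitx3 was the larger, at 0.067 ± 0.051) or Prox1. Of all features 29.0% were called. The factors of blood cells among these uncalled genes included Gata1 (0.10 ± 0.081), Gata2 (-0.017 ± 0.078), Gata3 (0.054 ± 0.048) and Tbx21 (-0.012 ± 0.11). Their 95% intervals ran from -0.14 at the lowest to 0.22 at the highest. Sox4, a Sox gene of lymphoid precursors, was at 0.039 ± 0.083, with 13 of 14 Sox members not called. Fitted as single probes, 1 of the 2 Sox6 probes was called at 0.16 ± 0.076 (limma adjusted p = 0.045). The other Sox6 probe was at 0.014 ± 0.17 and did not pass. Over all 97 members that did not pass, changes lay between -0.14 (Six5) and 0.19 (Tbx20, a heart gene). After Tbx20 the largest were Nkx2-9 (0.16 ± 0.14), Six5, Irx2 (-0.14 ± 0.099), Nkx6-3 (-0.14 ± 0.071), Hoxb3, Nkx6-1 (-0.13 ± 0.034), Tbx19 (0.13 ± 0.11), Hoxc9 (0.11 ± 0.11) and Meis1. Nkx2-9 was called without set 2 at 0.20 (limma adjusted p = 0.033) but stood at 0.074 without set 1, and Irx2 was called without set 3 at -0.19 (limma adjusted p = 0.044). With exact zeros kept as values, Nkx6-1 was called at -0.13 (limma adjusted p = 0.048). Hoxc9 stood at 0.053 without set 1 and Tbx19 at 0.070 without set 2. Irx2 was the single uncalled member with the same sign on all 6 arrays. A p that missed the threshold does not show that these genes were unchanged.

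**Figure D3:**
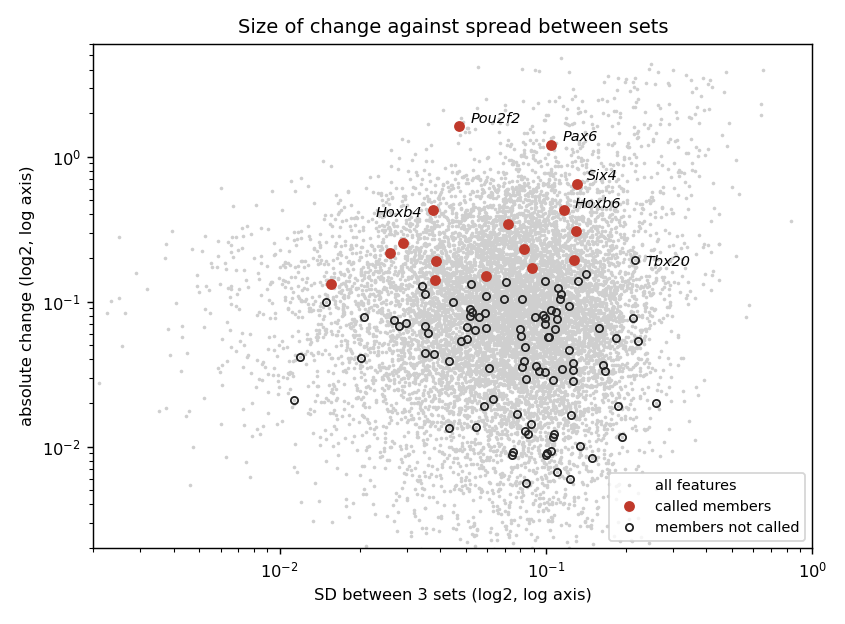
Absolute change (vertical, log2 units on a log axis) against the SD between 3 sets (horizontal, log axis) for all 11364 features in grey, the 16 called members as filled points and the 97 others as open points; features beyond the axes, Lhx4 and Pax5 among them with changes near 0, are not shown. Pou2f2 and Pax6 stand highest among the members, and the median member SD of 0.084 lies close to that of all features.

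Many members differed between the dye orientations. The dye effect is the mean of the unturned ratios of a set, in which the treatment cancels. Its median absolute size was 0.12 among members and 0.088 over all features, and it exceeded the change with treatment for 83 members, or 73.5%, against 49.3% of all features. It also had a direction: the ratio leaned toward Cy5 for 89 of 113 members (78.8%), against 50.5% of all features, and in all 3 sets for 48 members (42.5%, against 26.8%). No member and no other feature passed limma's test for a dye effect (0 of 113 members and 0.00% of features at an adjusted p below 0.05), whereas 29 members, or 25.7%, had an unadjusted p below 0.05, against 23.1% of features. The absolute dye value had medians among members of 0.17, 0.21 and 0.10 in sets 1, 2 and 3, against 0.088, 0.14 and 0.071 over all features, while the members' absolute treatment value had medians of 0.094, 0.081 and 0.10. The SD over the 6 arrays was accordingly 0.23 at the median among members, against 0.17 over all features.

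Within a set, the 2 arrays of many members mirrored each other. Across the 113 members the sign-turned values of both orientations correlated at -0.46 in set 1, -0.041 in set 2 and 0.19 in set 3, against 0.52, 0.40 and 0.78 across all features. The set 1 value includes Sox3, which had the largest absolute value among members on both arrays of that set. It was not computed across the members without Sox3. These are correlations across genes, which share arrays and labelling, and genes are not replicates. Sox3, a gene of the early nervous system, was the extreme. Its ratios were -3.47, -0.23 and -0.12 with treated RNA in Cy5 and 3.25, 0.45 and 0.16 with it in Cy3, so the orientations did not overlap and its set values stayed at -0.11, 0.11 and 0.021. Tbx20 showed the same in set 3, at -1.23 with treated RNA in Cy5 and 1.74 in Cy3, and its change of 0.19 ± 0.22 had an SD above its mean. Without set 1 it was called at 0.31 (limma adjusted p = 0.0032).

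**Figure D4:**
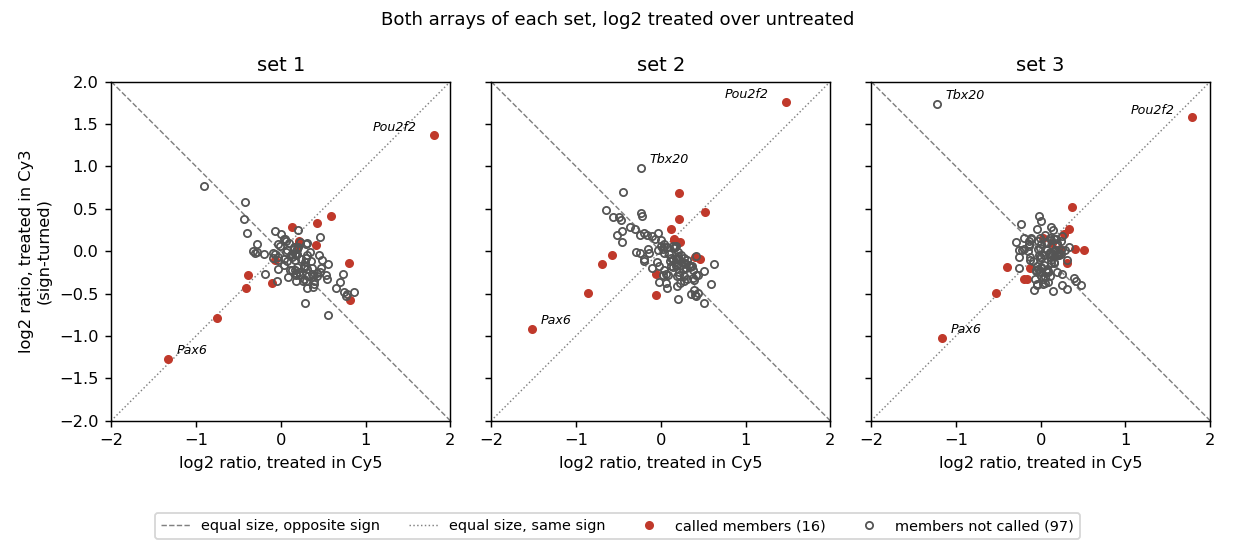
Sign-turned log2 ratio with treated RNA in Cy3 (vertical) against the log2 ratio with treated RNA in Cy5 (horizontal) on the arrays of sets 1, 2 and 3, for 16 called members (filled) and 97 others (open). Pou2f2 and Pax6 lie along the line of equal values, and many of the others run along the line of opposite values. Sox3 in set 1, at -3.47 and 3.25, is outside the panel.

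The 97 members that were not called have set values near 0 by the way they were chosen, which by itself favours opposite signs on the arrays of a set. Opposite signs were held by 70, 79 and 57 of them in sets 1, 2 and 3 (72.2%, 81.4% and 58.8%), against 45.5%, 56.4% and 38.0% of all features. Among the 16 called members the numbers were 2, 2 and 1. These were chosen for set values away from 0, which favours equal signs, so the groups are not compared like for like. The correlation among the uncalled members was -0.89, -0.75 and -0.54, and -0.69 in set 1 without Sox3, which was left out after the data were seen. Rank correlations, added likewise, were -0.61, -0.73 and -0.14. The members next to Sox3 and Tbx20 in the size of the dye effect leaned to Cy5. Prox1, the factor of lymphatic vessels, had 0.78, 0.30 and 0.41 with treated RNA in Cy5 and -0.51, -0.16 and -0.35 in Cy3. Irx6 had 0.55, 0.51 and 0.025 with treated RNA in Cy5 and -0.16, -0.62 and -0.38 in Cy3. Lhx3, a pituitary factor, had 0.31, 0.32 and 0.31 with treated RNA in Cy5 and -0.43, -0.32 and -0.44 in Cy3. In all 3 the orientations did not overlap. Read from one orientation alone, Prox1 would have been called as a rise (0.50, limma adjusted p = 0.045) and from the other as a fall (-0.34, limma adjusted p = 0.047), while the set values gave 0.080 ± 0.052 and no call. Lhx1, outside the test, carried -4.23 and 4.10 on the arrays of set 1, which left a set value of -0.065.

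Genes that work with these factors were taken from 5 lists. Of 20 tested partner proteins, 4 rose and 4 fell, with a median of -0.017 and 40.0% called, against 29.0% of all features. One of the rises was Pou2af1, which is also a member. Zfpm1, the GATA cofactor FOG-1, fell by 0.79 ± 0.15 (limma adjusted p = 7.48e-05), and the LIM cofactor genes Lmo4 and Ldb1 fell by 0.43 ± 0.074 and 0.34 ± 0.027. Ctnnb1, the gene of β-catenin, rose by 0.44 ± 0.048. The Eya genes, whose proteins bind sine oculis factors such as Six4, did not pass in 4 of 4 cases. Of 21 Polycomb and trithorax regulators, which keep Hox genes silent or active, 10 fell, 2 rose and 9 did not pass, with a median of -0.13 and 57.1% called, against 29.0% of all features. The chromobox genes, whose proteins read the silencing mark, included Cbx6, which fell by 0.73 ± 0.048, Cbx8, which fell by 0.70 ± 0.095, and Cbx2, which fell by 0.48 ± 0.15. The arrays of Cbx2 did not all have the same sign. In set 2 it was at -1.33 with treated RNA in Cy5 and at 0.051 in Cy3. Pcgf5, a subunit of a variant Polycomb complex, rose by 0.75 ± 0.050 (limma adjusted p = 1.84e-05).

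Homeobox genes outside the naming rule had 4 rises and 4 falls among 40 tested, or 20.0% called against 29.0% of all features, with a median of 0.033. Zeb2, a zinc finger homeobox repressor expressed in macrophages, rose by 1.46 ± 0.083 (limma adjusted p = 9.04e-07), with Shox2 at 0.48 ± 0.19, Tgif1 at 0.43 ± 0.053 and Pknox1 at -0.29 ± 0.033 behind it. Shox2 was below 0 in set 2 with treated RNA in Cy5, at -0.041. Of 6 tested HMG-box and T-box genes outside the rule none passed, and their median was 0.037. Factors of the macrophage lineage had 6 rises and 6 falls among 20 tested, or 60.0% called against 29.0% of all features. Their median absolute change was 0.26, against 0.063 among the developmental factors and 0.083 over all features. Cebpd at 2.16 ± 0.13, Id2 at -2.07 ± 0.18, Irf8 at 1.04 ± 0.032 and Ets2 at 0.82 ± 0.18 led them. Pou2f2 and Pax6 thus changed by amounts within the range of these lineage factors, and the next member in size, Six4, fell by 0.65.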

How the data were processed

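The authors deposited 1 log2 ratio per probe and array, in a table of 16281 probes with a median of 0 on each array. How the arrays were scanned and normalized is not given in the sources used here. Ratios were taken as Cy5 divided by Cy3, an assumption whose basis is that Cy5 is called the test channel in the labels. Under the opposite convention all signs reverse. Reading a set as 1 dye-swapped pair of RNA samples is an assumption, and the labels do not say that sets came from separate cultures, so a p-value reflects only how far these samples differ, and that spread may be technical. The number of arrays limits the precision.

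Gene names came from the platform annotation. All 131 member genes matched GRCm38.p6 by Entrez ID with 0 symbols changed. Probes of 1 gene were averaged. Set values were tested against 0 with limma 3.58.1 (R 4.3.3, Benjamini-Hochberg adjustment over 11364 features, threshold 0.05), and the test was run on simulated data. The members and lists were chosen with earlier results of these data known. Named are the called members, the 10 largest uncalled changes, the 5 largest dye effects, each family's largest change, listed blood factors, and up to 4 called genes per further list. Pou5f1, Six3, Hoxb5, Hoxb8, Hoxb9, Hoxb13, Pbx4, Lhx1 and Sox6 were named after their values were seen. Some genes of the naming rule are not reported here. Over all features, the sign-turned values of same-numbered arrays did not deviate from their orientation means in the same direction. The correlations were -0.48, -0.51 and -0.020, so in sets 1 and 2 the deviations were opposite. A dye effect shared by a set takes this form, so pairing cannot be decided from it. Alternatives covered scaling, replicate blocks, single orientations, left-out sets, zeros, probes, variances and thresholds.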

Additional observations from a re-analysis of the deposited data

How the results depend on the processing

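The members called, 16 of 113, fell to 8 with the set number as a fixed replicate block over 6 arrays (7.08%, against 2438 or 21.5% of all features), to 10 on the treated-in-Cy5 arrays alone, to 10 at an adjusted p below 0.01 and to 3 with a minimum of 1.5-fold. Among all features, 3294 calls fell to 1825 on the treated-in-Cy5 arrays alone, to 2127 at 0.01 and to 552 with 1.5-fold. With a random replicate block or none the members called were 13. Calls over all features rose from 3294 to 3412 with the random block and fell to 3147 with none. In deviations of the sign-turned values from the orientation means, no array correlated best with its own number in the other orientation. The deviations of sets 1 and 2 were opposite. The criterion set for pairing, every same-number correlation positive, was thus not met. A dye effect shared by both arrays of a set gives opposite deviations in sign-turned values, so this check cannot decide whether the numbers mark pairs. In the values themselves, over all features, the arrays of set 3 had the highest correlation among pairs across orientations (0.78). Pairs within an orientation reached higher values. The treated-in-Cy5 arrays of sets 1 and 3 correlated at 0.84, as did the treated-in-Cy3 arrays of sets 2 and 3. Under the block Hoxa7, Lhx9, Sox10, Meis2, Pou3f3, Nkx1-2, Pou2af1 and Pax1 lost their calls. Whether these are weaker effects was not tested. The main fit also uses the set numbers. Where the arrays of a set deviate oppositely, their mean cancels the deviations, and the main SD and p depend on that. With no block Pax1, Pou2af1 and Pou3f3 lost their calls (limma adjusted p = 0.54, 0.11 and 0.077), and the other called members kept theirs. Leaving out 1 set gave 11 to 14 members and 2618 to 2943 features. The split of member calls turned with the orientation: 7 rises and 3 falls on the treated-in-Cy5 arrays, and 3 rises and 10 falls on the treated-in-Cy3 arrays. All features had 931 rises and 894 falls on the treated-in-Cy5 arrays, and 1303 rises and 1079 falls on the treated-in-Cy3 arrays. Pax1 (-0.13) and Pou3f3 (-0.12) reversed on the treated-in-Cy3 arrays alone, as did Prox1 (-0.34), and Lhx3 reversed on the treated-in-Cy5 arrays (0.31); the cause was not tested. Pou2f2, Pax6, Six4, Hoxb4 and Hoxb6 kept their calls under the 15 alternatives run gene by gene, which leave out the stricter thresholds; Hoxb4 and Hoxb6 are under 1.5-fold. The count of dye calls was 0 under each alternative run, and the members' median SD was 0.087 with exact zeros kept. The table gives no intensity, so signal over background could not be weighed.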
